A study of Arabidopsis thaliana with 3 samples.

Results

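The genes described here are 9 nuclear genes of thylakoid accessory, assembly, membrane insertion, NDH and plastoglobule proteins, none of them a core photosystem subunit. They were chosen by name as FIB, TROL, PAM68, NdhS, SECE1, CHL, EX1, AT4G01150 and AT1G77090, and each had 1 probe set annotated to it alone. They are 9 of the 3602 genes with a probe set of their own. Transcript signals were measured in whole seedlings of Arabidopsis thaliana ecotype Col-0 at growth stage 1.02. The seedlings grew on MS medium with 0.5% sucrose under a cycle of 16 h light and 8 h dark. The groups were wild type without genetic modification, the mutant ppi1, whose Toc33 gene carries a T-DNA insertion, and line 75-IV, whose insertion lies in a gene labelled Toc75. Both mutants were in the Col-0 background, and how many plants made up a sample was left blank by the submitters. Each group had 1 array, so no replicate error or test exists, and every difference below is a difference between 2 arrays.

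Thylakoids are the inner membranes of the chloroplast, where light energy is captured and converted. Most of their proteins are encoded in the nucleus, made in the cytosol and imported through the Toc and Tic complexes of the envelope, in which Toc33 is a receptor and Toc75 proteins belong to the channel family. Inside the plastid, helper proteins insert them into the membrane, join them into complexes, shape the membrane and store its lipids in plastoglobules, the lipid droplets attached to it. The comparison of each mutant with wild type asks how transcripts of such helper proteins differed when an import component was disrupted. In a bulk sample of whole seedlings, fewer green cells and less RNA per green cell cannot be told apart.

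The 8297 probe sets per array had a trimmed mean signal of 100.2 on each array, in arbitrary units. The scan of ppi1 had the highest mean background (61.98, against 50.47 for wild type and 56.59 for line 75-IV) and the most outlier cells (504 of 285156, against 11 and 20). The control probe sets for GAPDH gave a 3' to 5' signal ratio of 18.7 on the wild-type array, against 1.61 for ppi1 and 2.42 for line 75-IV. For ubiquitin the ratios were closer, 4.16 for wild type, 2.75 for ppi1 and 3.51 for line 75-IV. The wild-type array had the highest ratio of both controls, and the part of transcript integrity in the ratios below was not tested. TOC33, TOC75-IV (AT4G09080) and AT4G09070, the locus printed in the label of line 75-IV, had no probe set of their own, so no signal of a mutated gene was there to check the labels with. The green tissue marker PSAN had 3755.6 on the wild-type array, 1628.9 on the ppi1 array and 3193.5 on the line 75-IV array. It was the only covered marker of 9 on the green tissue list. Of 6 root markers 2 were covered, the peroxidase gene AT4G30170 with 139.9, 71.9 and 236.7 and AT1G52070 with 28.9, 47.2 and 71.3 in the same order, and of 7 seed markers none was covered. The part of tissue make-up in the ratios below was not tested.

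All 9 genes lay above 14.9 on all 3 arrays, the floor below which signals were not ranked. Their brightness ranged from 21.2 for CHL in ppi1 to 3576.4 for AT4G01150 in ppi1, which reflects the probe sets as well as the transcripts. FIB was the only gene of the 9 at least 2-fold apart between any pair of arrays. The ppi1 array gave the lowest signal for 6 of the 9 genes and the highest for the other 3, and line 75-IV gave the highest for 5 and the lowest for none. For PAM68 the ppi1 signal was 51.1 against 51.2 in wild type, and for TROL 492.8 against 508.5. Among 1796 genes above the floor on all arrays, ppi1 was the lowest for 32.6% and the highest for 45.5%, and line 75-IV was the highest for 30.2% and the lowest for 30.1%.

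**Figure D1:**
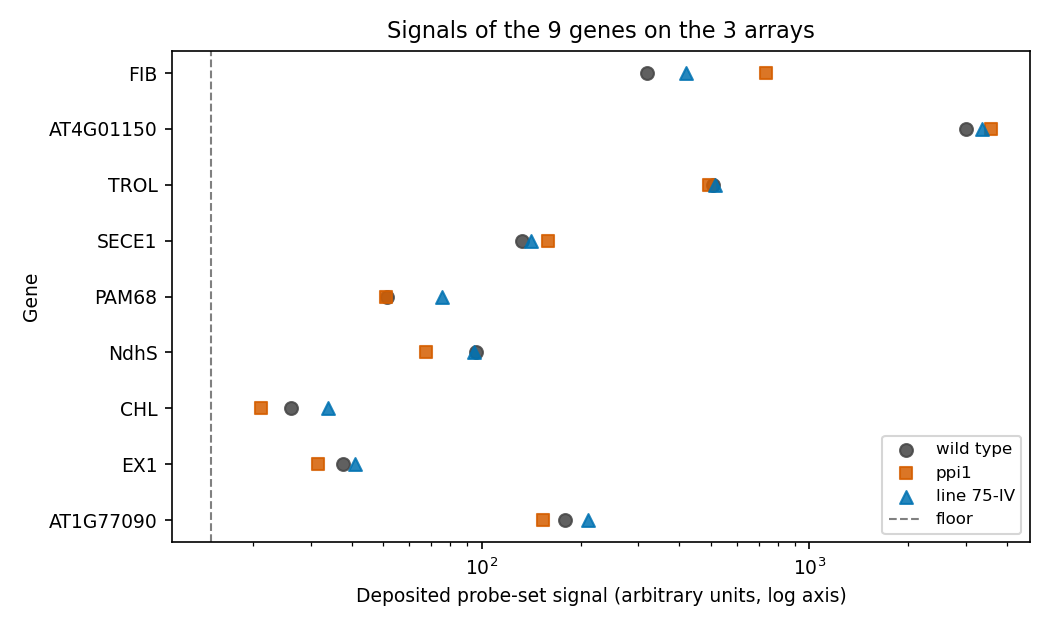
Deposited signal of each of the 9 genes (log axis, arbitrary units) on the wild-type, ppi1 and line 75-IV arrays, 1 point per array, with the floor of 14.9 as a dashed line. FIB is spread from 318.1 to 735.7, the 3 points of TROL nearly coincide, and CHL and EX1 lie nearest to the floor.

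FIB (AT4G04020) encodes fibrillin 1a, also called plastoglobulin 35, a protein that coats plastoglobules. The wild-type array gave 318.1, ppi1 735.7 and line 75-IV 420.0. The ppi1 array was thus the highest and the wild-type array the lowest. FIB was 2.31-fold higher in ppi1 than in wild type, a log2 ratio of 1.21 that ranked 42 from the top among 1853 genes measured on both arrays. It was 1.32-fold higher in line 75-IV than in wild type (log2 0.40) and 1.75-fold higher in ppi1 than in line 75-IV (log2 0.81). These directions held in all 5 other scalings tried, although centring on the median of all genes brought the ppi1 ratio to 0.91, below 2-fold. That centring includes genes below the floor and moved the median ratio of measured genes to -0.16, while centring on genes above the floor on all arrays left FIB at 1.12.

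The 2 other covered plastoglobule genes were, unlike FIB, lower in ppi1 than in wild type as deposited. Both ratios lay between the 5th and 95th percentiles of genes of like brightness. AT4G22240, which encodes fibrillin 1b of the same protein family, had a signal of 236.9 on the wild-type array, 168.1 on that of ppi1 and 248.0 on that of line 75-IV. It was therefore lowest in ppi1, with a log2 ratio to wild type of -0.49 that stayed below 0 in all 5 other scalings and was closest to 0 with spike-in scaling (-0.011). In line 75-IV its ratio to wild type was 0.07, with a sign that turned under 3 of the 5. The log2 ratios of FIB and AT4G22240 in ppi1 against wild type lay 1.70 apart, a 3.26-fold gap that no single scaling factor per array can change. The gap was 0.33 in line 75-IV against wild type. AT2G35490, the only other covered gene of 18 on the plastoglobule list, gave 385.0, 315.7 and 321.2 in wild type, ppi1 and line 75-IV, with a ratio of -0.29 in ppi1 that turned to 0.20 under spike-in scaling.

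Among the genes that shape the membrane or insert proteins into it, differences from wild type were small. AT4G01150 encodes CURT1A, which bends the thylakoid membrane at the margins of grana stacks. Wild type had a signal of 3001.0, ppi1 of 3576.4 and line 75-IV of 3366.3. Both mutants were higher, by log2 ratios of 0.25 and 0.17, but the first turned to -0.044 under centring on all genes and the second to -0.012 under spike-in scaling. Its probe set has a suffix that marks possible cross-hybridisation, and saturation at this brightness was not tested.

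SECE1 (AT4G14870) encodes a subunit of the Sec translocase, the channel that inserts and moves proteins at the thylakoid membrane. Its signals were 132.4 for wild type, 159.0 for ppi1 and 140.7 for line 75-IV. The order was the same as for FIB and AT4G01150, with wild type lowest and ppi1 highest. The log2 ratios to wild type were 0.26 in ppi1, which turned to -0.03 under centring on all genes, and 0.09 in line 75-IV, which turned to -0.03 under that centring and to -0.09 under spike-in scaling. TROL (AT4G01050), a rhodanese-like protein that anchors ferredoxin-NADP reductase to the thylakoid, gave 508.5, 492.8 and 514.0 in wild type, ppi1 and line 75-IV. It had the narrowest range of the 9 genes, 1.04-fold between the highest and the lowest array. Its log2 ratios were -0.045 in ppi1 and 0.016 in line 75-IV, with signs that changed between scalings.

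PAM68 and NdhS differed in their ratios to wild type, but both, like AT1G77090, had ppi1 as the lowest array. Against line 75-IV the log2 ratios of ppi1 were -0.57 for PAM68, -0.48 for NdhS and -0.46 for AT1G77090. Each rose above 0 under spike-in scaling, to 0.096, 0.18 and 0.21 in that order. PAM68 (AT4G19100), a factor for the assembly of photosystem II, had signals of 51.2 (wild type), 51.1 (ppi1) and 75.6 (line 75-IV). Wild type and ppi1 were almost equal, and line 75-IV stood above both. Its log2 ratio was -0.0028 in ppi1 against wild type and 0.56 in line 75-IV against wild type. The latter was 1.48-fold, the highest ratio of the 9 genes in that line, and between 0.38 and 0.51 in the 5 other scalings. The probe set of PAM68 also carries a suffix for possible cross-hybridisation.

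NdhS (AT4G23890) is the subunit of the chloroplast NDH complex that binds ferredoxin, and NDH returns electrons to the plastoquinone pool in cyclic flow around photosystem I. The signal was 95.8 for wild type, 67.7 for ppi1 and 94.6 for line 75-IV. Here ppi1 was below the other arrays, which differed by 1.01-fold. Of all measured genes, 11.0% had a lower ratio of ppi1 to wild type. NdhS was 1.42-fold lower in ppi1 than in wild type (log2 -0.50), the lowest ratio of the 9 genes. Its sign held in all 5 other scalings, from -0.80 to a value near 0 under spike-in scaling (-0.017). Of the 23 other genes on the list for NDH and cyclic electron flow, none had a probe set of its own. AT1G77090, which the gene table lists by its locus only, gave 179.3, 153.4 and 210.4 in wild type, ppi1 and line 75-IV. It was lowest in ppi1 and highest in line 75-IV, with log2 ratios to wild type of -0.23, which turned to 0.26 under spike-in scaling, and 0.23, which kept its sign.

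CHL and EX1, with roles in protection and signalling, were lowest in ppi1 and highest in line 75-IV, as were AT1G77090, TROL and PAM68. CHL (AT3G47860) encodes the chloroplastic lipocalin, which protects thylakoid lipids from oxidation. The array of wild type gave 26.2, ppi1 21.2 and line 75-IV 33.8, between 1.42 and 2.27 times the floor. The lowest signal was that of ppi1 and the highest that of line 75-IV, 1.59-fold apart (log2 -0.67), the largest difference between the mutants in the lower direction among the 9 genes. In that pair the sign held in all 5 other scalings, but spike-in scaling brought the ratio to -0.012. Against wild type the log2 ratios were -0.31 in ppi1, 0.18 under spike-in scaling, and 0.37 in line 75-IV, above 0 in all 5.

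EX1 (AT4G33630) encodes EXECUTER1, a thylakoid-associated protein that relays singlet oxygen stress to the nucleus. Signals were 37.7 for wild type, 31.5 for ppi1 and 41.0 for line 75-IV. The order of the arrays was that of CHL, within a narrower range of 1.30-fold. The log2 ratios to wild type were -0.26 in ppi1, which turned to 0.22 under spike-in scaling, and 0.12 in line 75-IV, which turned to -0.06 there.

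In ppi1 against wild type 1 of the 9 genes, FIB, was at least 2-fold apart, where 6.69% of 1853 measured genes were, and 4.26% were at least 2-fold higher. In line 75-IV against wild type none of the 9 was, where 1.88% of 1859 genes were. In ppi1 against line 75-IV none of the 9 was, where 6.26% of 1885 genes were. With 9 genes, such counts are near these shares and set the group apart in no comparison. At a threshold of 1.5-fold, FIB alone was apart in ppi1 against wild type, beside 25.6% of all genes, and none of the 9 in line 75-IV against wild type, beside 11.8%. FIB and CHL were apart by that much in the pair of mutants, 2 of 9 beside 24.5% of all genes.

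By direction alone, 6 of the 9 genes were lower in ppi1 than in wild type, with a median log2 ratio of -0.045. The lower genes include PAM68 at -0.0028 and TROL at -0.045, both near 0. Of all measured genes 41.5% were lower, and their median ratio was 0.11. In line 75-IV, which is set against the same wild-type array, 1 of the 9 genes was lower, NdhS by -0.018, and the median ratio was 0.17. Of all genes 44.4% were lower there, and their median ratio was 0.05. Against each other, ppi1 was lower than line 75-IV for 6 of the 9 genes with a median of -0.38, beside 43.9% and 0.07 for all genes. Spike-in scaling left 1, 5 and 1 of 9 lower in ppi1 against wild type, line 75-IV against wild type and ppi1 against line 75-IV. Centring on all genes gave 8, 3 and 8 in that order. Both scalings add 1 constant per comparison to every log2 ratio, so these counts move with it. Shares of all genes lower under them were not computed. The median ratio of all genes moved as well, to 0.57, -0.12 and 0.70 under spike-in scaling. Under centring on all genes it was -0.16, -0.06 and -0.10.

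The spread of all genes of like brightness gives a scale for these ratios, and is no replicate error. When measured genes were split into 4 equal parts by brightness, the brightest part held 463 genes. In it 5% of the log2 ratios of ppi1 to wild type lay below -0.74 and 5% above 0.85. FIB at 1.21 was outside these limits, and the other 8 genes were inside those of their own brightness class. In line 75-IV against wild type and in the pair of mutants all 9 genes were inside. The range over the 3 arrays had a median of 0.46 (log2) for the 9 genes and of 0.49 for the 1796 genes.

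**Figure D2:**
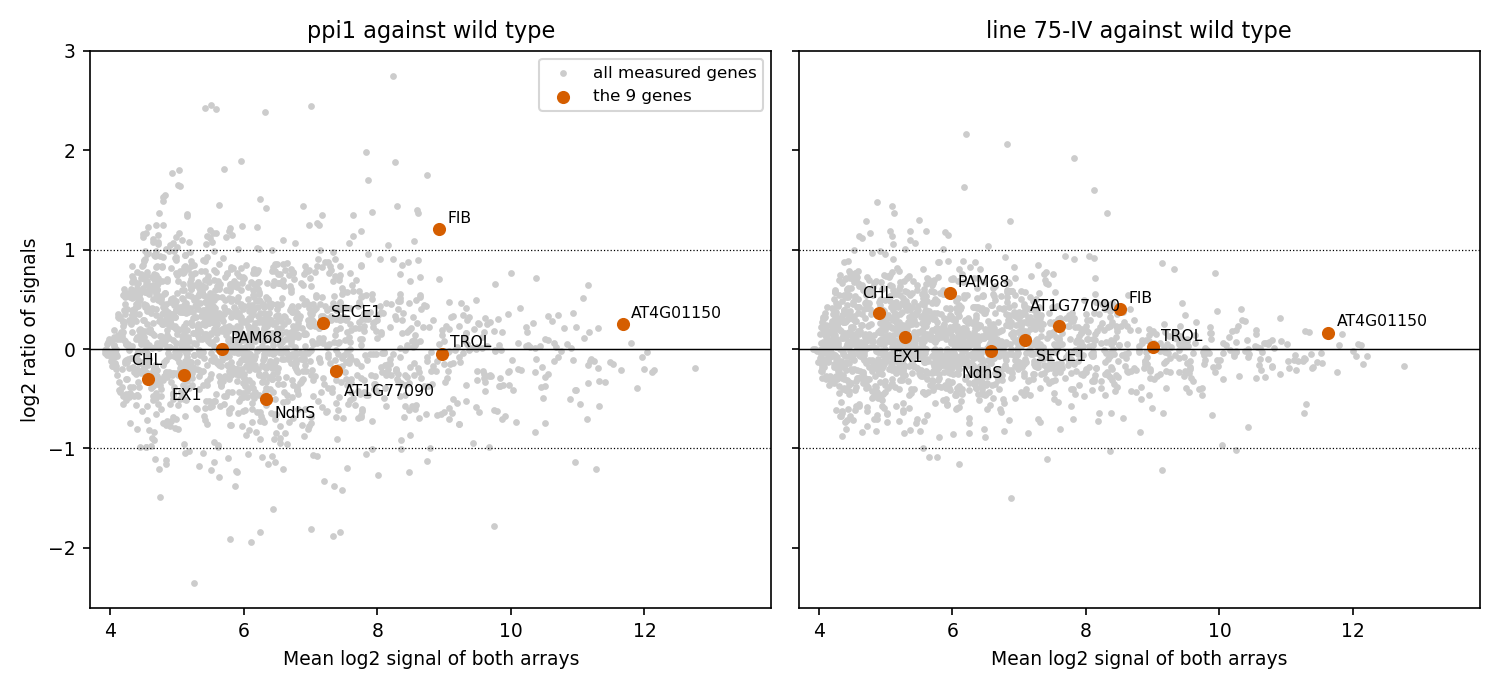
Log2 ratio of signals against the mean log2 signal of both arrays for ppi1 (left) and line 75-IV (right) against wild type, with all measured genes in grey and the 9 genes in orange. Dotted lines mark 2-fold. FIB is the only labelled gene beyond them, at 1.21 in ppi1, and the other 8 lie within the grey cloud.

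Of 122 further entries on lists of thylakoid insertion, shaping, assembly, NDH, plastoglobule, protease, regulatory and lumen proteins, 8 had a probe set of their own, so these lists are thinly covered. In ppi1 against wild type 6 of these 8 were lower, beside 41.5% of all genes. The 8 ratios ran from -0.49 to 0.17 with a median of -0.19. None was 2-fold apart, beside 6.69% of all genes. Under spike-in scaling 1 of 8 was lower, where the median ratio of all genes was 0.57. In line 75-IV against wild type 6 of 8 were lower, with a median of -0.14, beside 44.4% of all genes. Under spike-in scaling 8 of these 8 and 5 of the 9 genes were lower there, and under centring on all genes 7 of 8 and 3 of 9. The median ratio of all genes in that comparison was -0.12 under spike-in scaling and -0.06 under centring on all genes. Shares of all genes lower under these scalings were not computed. The difference between these small lists was not tested.

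The assembly list held 5 of the covered genes. PSB27, a lumen protein bound to photosystem II during its assembly and repair, had signals of 2419.8 (wild type), 2162.3 (ppi1) and 2223.3 (line 75-IV). Wild type was the highest, but the ratio in ppi1 of -0.16 turned to 0.05 after quantile normalization. AT1G49380, AT1G54500 and PSB27 had the lowest ratios of this list in ppi1, -0.40, -0.22 and -0.16, all above 0 under spike-in scaling. All 5 were lower in line 75-IV than in wild type, beside 44.4% of all genes, led by AT1G54500 with 824.6 in wild type and 629.2 in line 75-IV, though PSB27 was above 0 after quantile normalization (0.01). On the list for photoprotection and regulation the covered gene AT4G31530 had 0.17 in ppi1, which turned to -0.12 under centring on all genes.

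**Figure D3:**
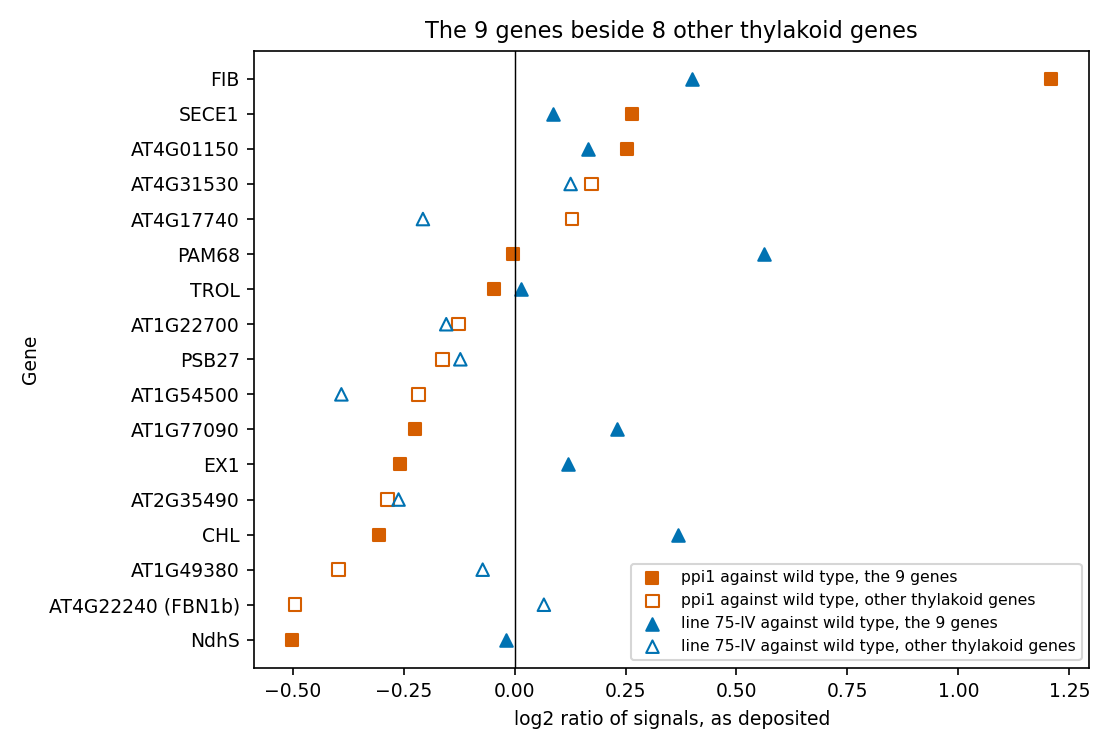
Log2 ratios to wild type in ppi1 (squares) and in line 75-IV (triangles) for the 9 genes (filled) and the 8 other covered thylakoid genes (open), sorted by the ppi1 ratio. FIB stands alone at the top with 1.21, while AT4G22240 (fibrillin 1b) at -0.49 and NdhS at -0.50 are at the bottom.

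The widest ranges over the 3 arrays were those of FIB (1.21 on the log2 scale), CHL (0.67) and PAM68 (0.57). For each, the genes most alike were taken as those with the least Euclidean distance between log2 signals centred over the 3 arrays, among 1796 genes. Nearest to FIB were AT2G47630 at a distance of 0.034, with signals of 29.6 for wild type, 68.1 for ppi1 and 40.1 for line 75-IV, then AT1G09520 (0.067) and AT2G05790 (0.069). Nearest to CHL were PRL (0.0065), AT1G30870 (0.026) and AT4G24830 (0.036). Nearest to PAM68 were AT1G61980 (0.024), AT1G20950 (0.030) and AT4G17650 (0.031). The likeness rests on 3 arrays and is a description.

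Spike-in scaling used 9 spiked control probe sets, whose mean log2 ratio was -0.48 in ppi1 against wild type. It raised the median ratio of all genes there by 0.46, while centring on all genes lowered that median by 0.27. Relative to the median of all genes as deposited, FIB stood at 1.1, NdhS at -0.61 and CHL at -0.41 in ppi1. FIB and NdhS were the only 2 genes of the 9 whose sign in ppi1 against wild type held in all 5 other scalings. The share of all genes whose sign held in this way was not computed for any comparison. In line 75-IV against wild type the sign held for FIB, PAM68, NdhS, CHL and AT1G77090, and in the pair of mutants for FIB and CHL. Spike-in scaling and centring of either kind add 1 constant per comparison to every log2 ratio. Whether a sign held under them thus depends only on the size and direction of the ratio. In line 75-IV against wild type each lowered the ratios, so NdhS at -0.018 could not turn under them.

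**Figure D4:**
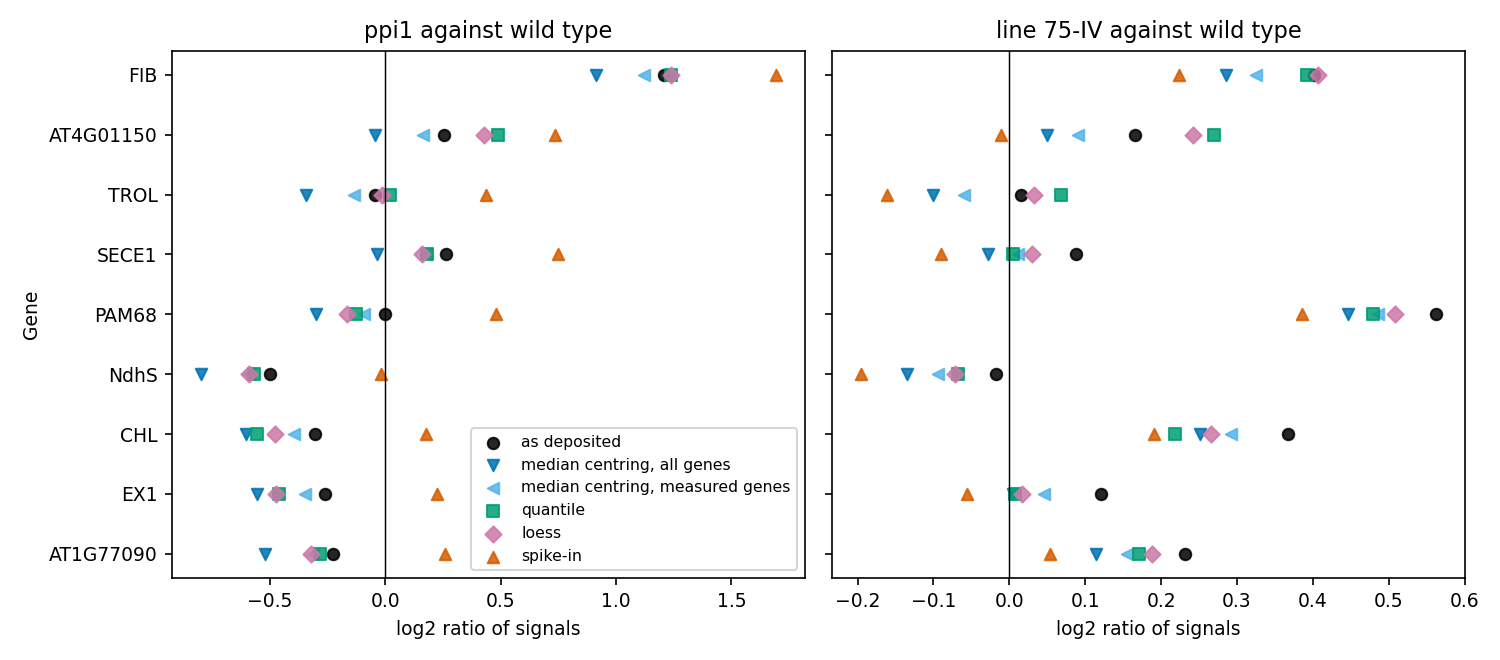
Log2 ratio of each of the 9 genes in ppi1 (left) and line 75-IV (right) against wild type, as deposited and under 5 other scalings, 1 symbol per scaling (the horizontal axes differ). In ppi1 the points of FIB lie between 0.91 and 1.69 and those of NdhS between -0.80 and -0.017, while the points of the other 7 genes fall on both sides of 0.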

How the data were processed

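Per the labels' protocols, total RNA was reverse transcribed from an oligo-dT primer, transcribed into biotin-labelled cRNA and hybridised to Affymetrix arrays. The deposited values are intensities, called signals here, with 1 linear value for each probe set. The software and scaling target are not given in the sources used here. Since the means trimmed by 2% agreed within 2%, signals were used as deposited and compared as log2 ratios. Equal trimmed means do not show that the arrays are alike in other ways. The median signals were 22.1 for wild type, 26.3 for ppi1 and 24.2 for line 75-IV. With 1 array per group no p-value was computed, and 2-fold is a rule of size.

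The floor of 14.9 was the 40th percentile of all signals without the 50 control probe sets. Genes above it on both arrays of a comparison count as measured in it, and a gene's brightest probe set was used. Of 3602 genes, 3592 matched the gene table. The 153 list entries were matched by locus, and all were in that table. The members, lists and alternatives were chosen with earlier results of these data known. Named genes are the 9 members and the 3 genes nearest to each of the 3 members of widest range. On other lists every gene at least 2-fold apart is named, with up to 3 of largest absolute log2 ratio in ppi1 against wild type. PSAN, AT4G30170, AT1G52070 and AT4G31530 are the covered entries of their lists. The other scalings were centring on the median of all genes or, added after seeing the data, of genes above the floor on all arrays, quantile normalization, loess (span 0.4) and spike-in scaling. The calculation of ratios was checked on simulated arrays with known folds, which does not test the noise of the real arrays. Python 3.11.15, pandas 2.3.3 and statsmodels 0.14.6 were used.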

Additional observations from a re-analysis of the deposited data

How the results depend on the processing

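No paired analysis was possible because each group had 1 array. The limit of all values is that single array, and for CHL and EX1 also a signal near the floor. A log2 shift over 0.1, or a count over 1.5 times apart, was taken as a change, as no replicate spread exists; the cause of each was not tested unless named. Centring on all genes gave medians of the 9 genes of -0.34 in ppi1 against wild type, 0.050 in line 75-IV against wild type and -0.56 in ppi1 against line 75-IV. It left 0 of 9 at 2-fold in ppi1 against wild type, put 3 of 9 lower in line 75-IV, and put 7 of 8 other thylakoid genes lower in ppi1 than in line 75-IV. All genes under that centring had medians of -0.16, -0.06 and -0.10 in the same order. Centring on measured genes put 2 of 9 lower in line 75-IV against wild type, with a median of -0.024 for all genes. Loess gave medians of -0.17 in ppi1 against wild type and -0.50 against line 75-IV. Spike-in scaling gave medians of the 9 genes of 0.44, -0.012 and 0.28 in the order above, beside 0.57, -0.12 and 0.70 for all genes. It put 1, 5 and 1 of 9 lower, and 1 of 9 at 2-fold between the mutants. Of the 8 other genes, 1 was lower in ppi1 against wild type and 0 against line 75-IV. Shares of all genes were not computed under the other scalings. A floor at the 60th percentile removed CHL and EX1 and gave a median of -0.061 between the mutants, and probe sets without a suffix, which removed PAM68 and AT4G01150, gave -0.23 in ppi1 against wild type. At 3-fold 0 of 9 were apart in ppi1 against wild type, with no share of all genes computed. At 1.5-fold 2 of 9 were apart between the mutants, beside 24.5% of all genes. Quantile normalization changed none of these counts or medians by more than the limits stated. The floor at the 20th percentile, no floor and the median over probe sets could not change values of the 9 or 8 genes. Each of these genes had 1 probe set and lay above the floor at the 40th percentile on all arrays. Those settings are thus no check of stability for them.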
